A study of Mus musculus with 15 samples.

Results

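MHC class I presentation is described here through 10 mRNA, H2-K1, H2-D1, B2m, Tap1, Tap2, Tapbp, Nlrc5, H2-T23, Erap1 and Calr, which were chosen by name. All 10 were found by symbol among the 11262 mRNA of a first expression table and among the 11211 mRNA of a second. RNA sequencing had been done on P14 CD8+ T cells, mouse T cells that carry a transgenic T cell antigen receptor (TCR) for a peptide of lymphocytic choriomeningitis virus. The first table holds 9 libraries and asks what 24 h of TCR activation does to naïve cells and how far this needs the PI3K p110δ catalytic subunit, and the second holds 6 libraries of cytotoxic T lymphocytes (CTL) kept with or without IL-2. Each of the 5 groups has 3 biological replicates.

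Naïve cells were sorted ex vivo as DAPI-negative TCRβ+ CD8+ cells with high CD62L and low CD44. For TCR activated cells the culture lasted 24 h and contained the peptide gp33-41 (100 ng/ml), IL-2 (20 ng/ml) together with IL-12 (2 ng/ml). PI3Kdi cells had in addition 10 µM IC87114, the p110δ inhibitor. Both were then sorted as live CD8+ cells, and each replicate of these groups was a pool from 3 female mice of 9 to 13 weeks. CTL had been activated for 48 h and grown for 4 more days in 20 ng/ml IL-2. On day 6 they were washed and kept for 24 h either in IL-2 or without it. The CTL are P14 cells too, no sort is stated for them, and the article does not report on them. All values are FPKM, fragments per length of exon and per depth of the library, so levels can be compared between genes, but they are shares of the mRNA measured. The tables were normalised separately, so no test was made between them.

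MHC class I molecules carry short peptides from the cell's own proteins to its surface, where CD8+ T cells read them. A heavy chain (H2-K1, H2-D1, H2-T23) pairs with β2-microglobulin (B2m) in the endoplasmic reticulum, while the transporter TAP (Tap1, Tap2) pumps in peptides that proteasomes have cut, Erap1 trims them, and tapasin (Tapbp) and calreticulin (Calr) hold the empty molecule until a peptide fits. NLRC5 (Nlrc5) is the transactivator that binds class I promoters through a set of DNA-bound factors, and interferon raises most of these genes in many cell types. T cells are read as well as readers: nearly every nucleated cell displays class I, and the peptide gp33-41 is presented to P14 cells by the product of H2-D1.

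The promoters of class I genes share short elements, known as the κB element, the interferon-stimulated element bound by IRF factors, and the X2 and Y boxes that NLRC5 uses. RefSeq promoter windows on GRCm38.p6, from 250 bases before to 50 bases after a start, matched 8 of the 10 genes, and Tap2 and Nlrc5 had no entry. The motifs searched, on both strands, were GGGATTCC for κB, TTTCNNTT for IRF, CCAAT for the Y box, TGACG followed after 20 bases by ATTGG for an X2 box at a fixed distance from a Y box (ATTGG is CCAAT on the other strand, so this match contains a Y match), and CCAAT followed after 9 bases by CCACG for the endoplasmic reticulum stress element, which also contains a Y match. These letters were chosen after the sequences had been read. The 200 bases just before the start are shown for the heavy chains H2-K1 (chr17:34000348-34000547, minus strand) and H2-D1 (chr17:35262894-35263093, plus strand), for B2m (chr2:122147487-122147686, plus strand) and for Calr (chr8:84846932-84847131, minus strand), since the heavy chains and Calr moved in opposite directions in the cells. They are written 5′ to 3′ on the strand of the gene. Capitals mark the κB, IRF, X2 and Y letters in the first 3, and the stress element and a second CCAAT in Calr, whose 2 IRF matches stay in lower case because one of them overlaps that CCAAT.
H2-K1: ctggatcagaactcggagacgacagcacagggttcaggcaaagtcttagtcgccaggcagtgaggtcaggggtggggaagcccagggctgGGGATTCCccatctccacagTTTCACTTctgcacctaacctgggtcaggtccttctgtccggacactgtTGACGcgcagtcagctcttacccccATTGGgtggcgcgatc
H2-D1: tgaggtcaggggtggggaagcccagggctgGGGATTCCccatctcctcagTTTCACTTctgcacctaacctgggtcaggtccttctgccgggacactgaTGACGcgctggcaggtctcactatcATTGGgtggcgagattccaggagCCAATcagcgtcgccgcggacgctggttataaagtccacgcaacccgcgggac
B2m: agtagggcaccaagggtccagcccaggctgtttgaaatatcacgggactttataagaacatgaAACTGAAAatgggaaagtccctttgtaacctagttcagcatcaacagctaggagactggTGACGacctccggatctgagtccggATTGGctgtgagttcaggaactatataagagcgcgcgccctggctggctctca
Calr: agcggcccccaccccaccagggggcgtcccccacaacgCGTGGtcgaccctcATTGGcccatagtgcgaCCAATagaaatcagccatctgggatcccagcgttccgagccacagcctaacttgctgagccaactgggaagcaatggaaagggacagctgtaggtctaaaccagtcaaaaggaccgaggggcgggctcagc

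The spaced X2 and Y pair was found in 3 of the 8 matched members, H2-K1, H2-D1 and B2m, and in 0.0999% of the 27025 genes with a window. The κB letters were in H2-K1 and H2-D1 and in 1.23% of all genes. Only this exact spelling was searched, so a κB element with other letters in another member would be missed. The stress element was in Calr alone among the 8 members and in 0.137% of all genes. The IRF letters (6 of 8 members, 26.7% of all genes) and CCAAT (7 of 8 members, 41.1% of all genes) are common in promoters at large. In H2-K1 and H2-D1 the κB and IRF matches lay 20 bases apart, from the first base of one to the first base of the other, at positions -110 and -90 in H2-K1 and at -170 and -150 in H2-D1. A match describes letters and not binding, and the window lacks any element further away.

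**Figure D1:**
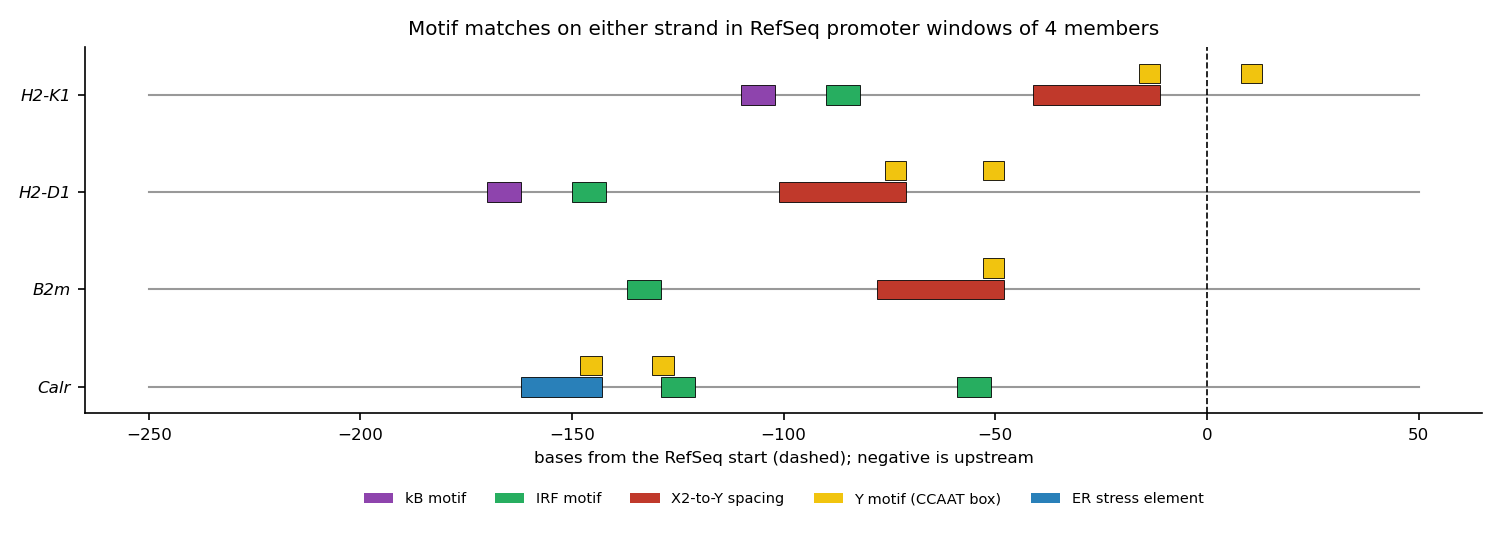
Position of motif matches on either strand in the RefSeq promoter windows of H2-K1, H2-D1, B2m and Calr, in bases from the RefSeq start (dashed line, upstream to the left). The X2-to-Y pair is present in H2-K1, H2-D1 and B2m, and the stress element in Calr.

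In the GENCODE annotation of GRCm38, 6 of the 10 genes lie in the MHC region of chromosome 17: Tapbp (33915899 to 33929292, plus strand), H2-K1 (33996017 to 34000347, minus strand), Tap1 (34187553 to 34197225, plus strand), Tap2 (34203527 to 34216321, plus strand), H2-D1 (35262730 to 35267499, plus strand) and H2-T23 (36029773 to 36032855, minus strand). B2m is on chromosome 2 (122147686 to 122153083), Erap1 on chromosome 13 (74639568 to 74693201), and Calr (84841850 to 84846934) and Nlrc5 (94434356 to 94527272) are on chromosome 8. Class I heavy chains resemble each other, so reads can be shared. Of the 75-base windows of the longest coding transcript, 13.09% of H2-T23, 6.9% of H2-D1, 1.55% of H2-K1 and 0.99% of Tapbp were also found in another gene, and none of the windows of the other 6. Exons of Tap1 overlap Psmb9, those of Erap1 overlap Cast and those of Tap2 and Nlrc5 overlap noncoding RNA, all on the opposite strand, while Tapbp overlaps Zbtb22 on its own strand and Gm19412 on the other. The library kit was stranded, but whether the counting used the strand is not stated, so these values carry that uncertainty.

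The label of the cells was checked with marker genes. All 5 CD8 T cell markers (Cd3d, Cd3e, Cd3g, Cd8a and Cd8b1) were present, with a summed level from 637 FPKM in a TCR activated library to 3482 FPKM in a naïve one. The 5 genes of MHC class II presenting cells (H2-Aa, H2-Ab1, H2-Eb1, Cd74 and H2-DMa) summed to 49.6 to 93.7 FPKM in naïve, 22.1 to 38.0 FPKM in TCR activated and 15.3 to 24.0 FPKM in PI3Kdi libraries. In CTL, 4 of these 5 were measured and their sum was 42.8 to 55.1 FPKM with IL-2 and 84.4 to 91.3 FPKM without. Of 7 B cell markers, the 4 in the first table summed to 20.9 to 26.3 FPKM in naïve, 4.63 to 7.12 FPKM in TCR activated and 3.30 to 4.58 FPKM in PI3Kdi libraries, most of it Cd79b in the naïve cells. In CTL only Cd79b was measured, at 2.74 to 6.30 FPKM with IL-2 and 10.8 to 20.6 FPKM without. From naïve to TCR activated cells and on IL-2 withdrawal these sums moved in the same direction as the class I heavy chains, and their part in the results was not tested. In the class II list H2-DMa moved that way, with means of 47.7 and 6.21 FPKM on activation and 24.1 and 62.7 FPKM on withdrawal. H2-Ab1 went the other way, with means of 2.92 and 5.07 FPKM on activation and 18.5 and 14.2 FPKM on withdrawal. Cd74 did so on activation only, from a mean of 11.6 to 16.1 FPKM. The 2 groups overlapped for all class II genes but H2-DMa on activation, and for H2-Aa on withdrawal. No NK cell marker of 3 was measured in the first table, and in CTL only Klrb1c was, at 1.2 to 1.88 FPKM with IL-2 and 2.17 to 3.41 FPKM without. Of 10 macrophage and dendritic cell markers, the first table held Cd68 and Batf3. Cd68 was at 2.45 to 2.75 FPKM in naïve, 1.85 to 4.94 FPKM in TCR activated and 3.48 to 4.55 FPKM in PI3Kdi libraries. Batf3 was listed at 0 in naïve libraries, at 55.56 to 89.15 FPKM in TCR activated and at 13.1 to 22.63 FPKM in PI3Kdi libraries, the opposite direction to the heavy chains on activation. The CTL table held Itgax as well, at 0.21 to 0.39 FPKM with IL-2 and 3.67 to 5.17 FPKM without, the direction of the heavy chains, while the libraries of the 2 CTL groups overlapped for Cd68 and Batf3. Of 3 CD4 T cell markers, the first table held Zbtb7b and Cd40lg. Their sum was 9.49 to 10.64 FPKM in naïve, 19.5 to 31.8 FPKM in TCR activated and 5.37 to 6.16 FPKM in PI3Kdi libraries. In CTL all 3 were measured, with a sum of 21.5 to 29.6 FPKM with IL-2 and 35.1 to 42.8 FPKM without. There Cd4 was at 0.05 to 0.39 and 0.92 to 1.92 FPKM, and Zbtb7b at 16.7 to 20.97 and 24.6 to 28.3 FPKM. The part of these markers in the results was not tested either.

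The 10 mRNA span a wide range of levels, and the order of their mean FPKM differed between groups. In naïve cells it ran from B2m, H2-K1 and H2-D1 down through H2-T23, Calr, Tapbp, Tap2, Tap1 and Erap1 to Nlrc5, and the libraries of neighbours overlapped only for H2-T23 with Calr and for Tap2 with Tap1. In TCR activated cells Calr came next after B2m, and Calr with H2-K1, H2-K1 with H2-D1, Tap1 with Erap1, and Tapbp with Tap2 overlapped. PI3Kdi cells had H2-K1 and then Calr after B2m, with Calr and H2-D1, Tap1 and Erap1, and Erap1 and Tapbp overlapping. In CTL with IL-2, H2-D1 and H2-K1, which overlapped, came after B2m and before Calr. Without IL-2, Calr was below H2-T23, Tap1 and Tapbp, overlapping Tapbp. Nlrc5 was last in the 3 groups of the first table. Erap1 was last in both CTL groups, although with IL-2 its libraries overlapped those of Nlrc5.

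**Figure D2:**
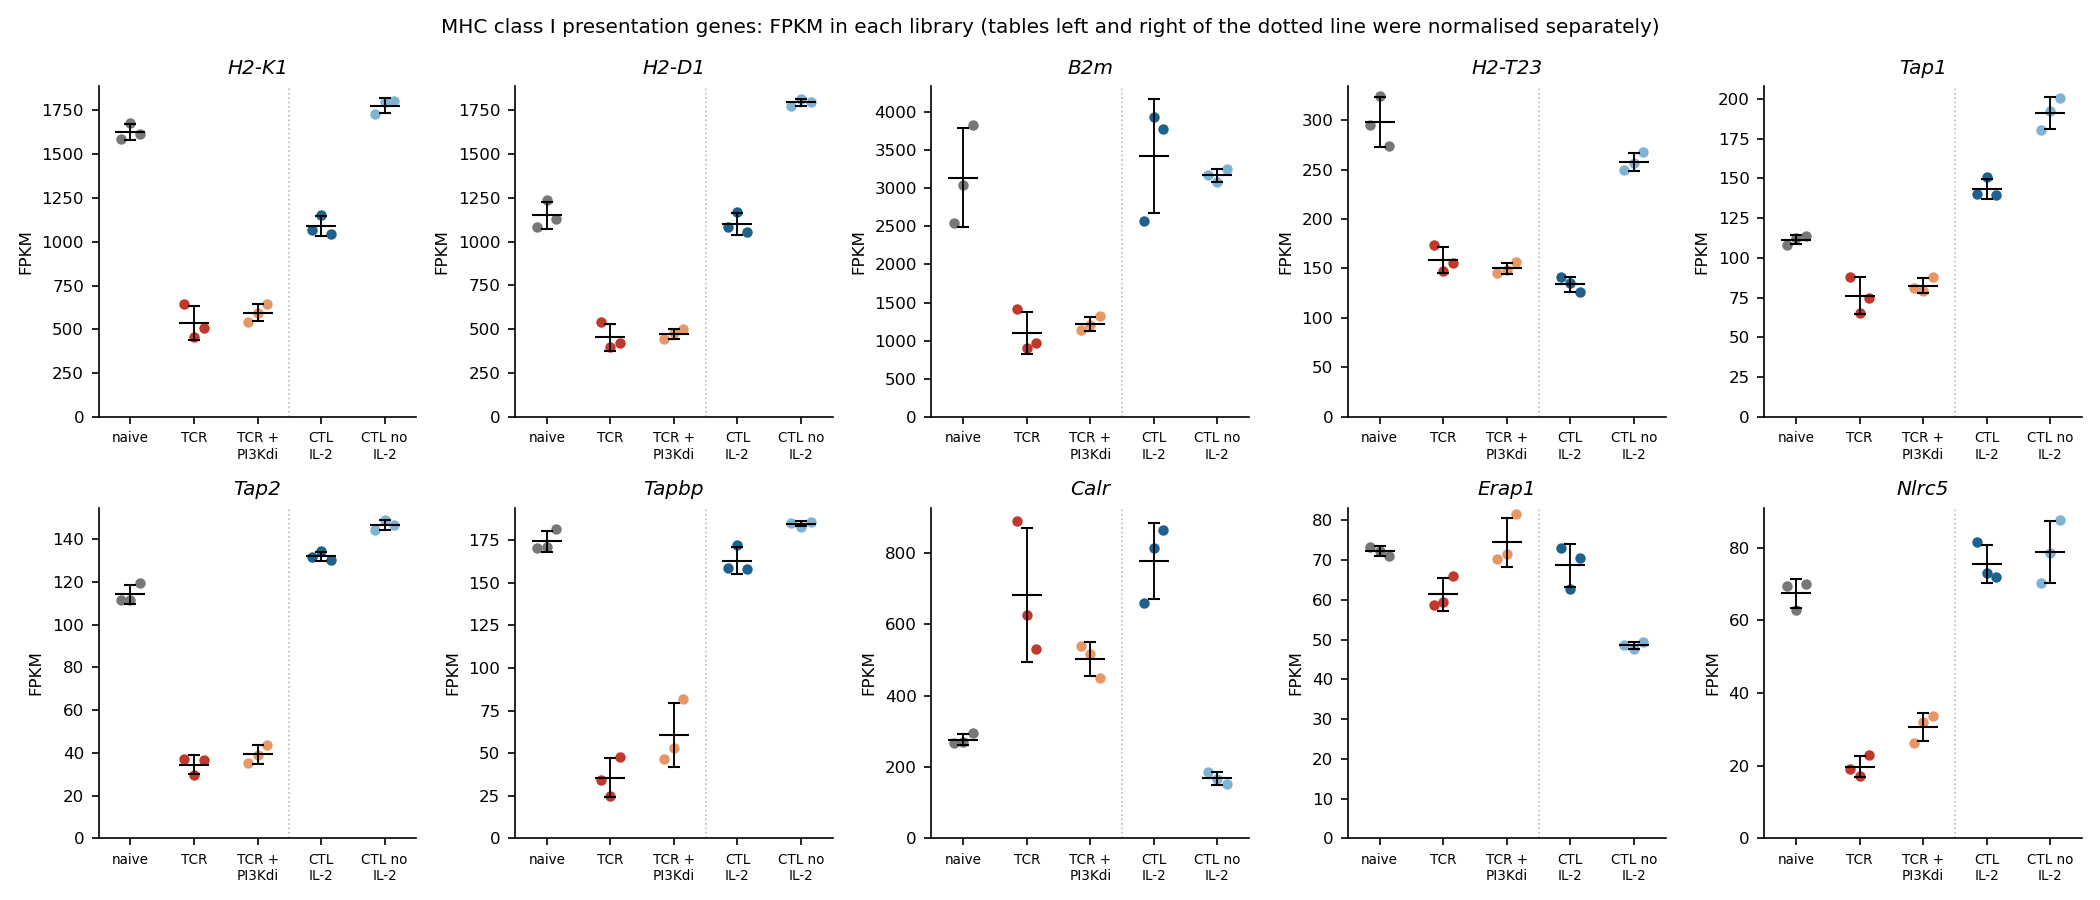
FPKM of the 10 mRNA (panels) in each of 15 libraries, with 3 points per group, the mean as a bar and the SD as whiskers; the dotted line parts the 2 tables, which were normalised separately. Calr is high where the heavy chains H2-K1 and H2-D1 are low in the first table, and falls in CTL without IL-2, where both heavy chains are higher.

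TCR activation of naïve cells lowered most of these 10 mRNA and raised Calr. Differences were tested with limma on log2(FPKM + 0.1) over all mRNA of a table. An mRNA passed the test at a Benjamini-Hochberg adjusted p under 0.05, and was called changed if it also differed by more than 2-fold. Against naïve cells, 6 of the 10 mRNA were called lower (B2m, H2-D1, H2-K1, Nlrc5, Tap2 and Tapbp), where 23.7% of all mRNA were called lower, and 1 of 10 was called higher (Calr), where 25.0% of all mRNA were. At the adjusted p alone, 9 of 10 were lower, beside 39.8% of all mRNA, and 1 was higher, beside 40.9%. The median log2 difference of the 10 was -1.44 and that of all mRNA 0.01. Scaling libraries by their median in place of the authors' normalisation moved the median of all mRNA to 0.12. The 10 differences then ran from -2.22 for Tapbp to 1.39 for Calr. Such scaling moves all mRNA of a comparison by nearly the same amount, so differences relative to that median stay as they were by construction. Because values are shares, a lower FPKM cannot be told apart from an unchanged number of molecules in cells that hold more mRNA, and fewer cells of a type cannot be told apart from less RNA per cell.

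The classical heavy chains fell together. H2-K1 was at 1589.8, 1676 and 1618 FPKM in the 3 naïve libraries and at 644, 453 and 509.5 FPKM in the TCR activated ones. The log2 difference was -1.62 (SE 0.13, adjusted p = 3.3e-07), 3.07-fold lower, and every activated library lay below every naïve one. H2-D1 was at 1083, 1236 and 1130.5 FPKM in naïve cells and 543, 398 and 421 FPKM after activation, a log2 difference of -1.35 (SE 0.12, adjusted p = 1.0e-06). Groups did not overlap for H2-D1 either. Their partner B2m had 2549, 3040.2 and 3835 FPKM in naïve and 1417, 905 and 974 FPKM in activated cells, a log2 difference of -1.52 (SE 0.19, adjusted p = 1.5e-05). The 3 naïve libraries differed among themselves by more for B2m than for either heavy chain, and all were above the activated ones. H2-T23, which encodes the nonclassical molecule Qa-1, ligand of the NKG2A receptor, was at 295, 324 and 274 FPKM in naïve and 173, 147 and 155 FPKM in activated cells. It fell by a smaller amount, -0.91 (SE 0.09, adjusted p = 2.4e-06), and did not reach 2-fold. In H2-K1, H2-D1, B2m, H2-T23, Tap1, Tap2 and Calr the first TCR activated library was the highest of its 3.

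Both chains of the TAP transporter fell, but not by the same amount. Tap1 was at 108, 112 and 114 FPKM in naïve and 88.3, 65.3 and 75.04 FPKM in activated libraries, a log2 difference of -0.56 (SE 0.10, adjusted p = 3.9e-04). Tap2 was at 112, 111 and 119 FPKM and 37.1, 29.5 and 36.7 FPKM, a log2 difference of -1.73 (SE 0.11, adjusted p = 5.0e-08). No library of one group reached the range of the other for either gene. Tapasin had the largest fall of the 10. Tapbp had 170.5, 171 and 182 FPKM in naïve cells and 34.3, 24.8 and 47.9 FPKM after activation, 5.05-fold lower with a log2 difference of -2.34 (SE 0.23, adjusted p = 2.3e-06). Its activated libraries were also the most uneven in proportion, with replicate 3 the highest and replicate 2 the lowest. The peptidase Erap1 moved little, from 73.4, 72.4 and 71.1 FPKM to 58.7, 59.4 and 66.1 FPKM. Its log2 difference of -0.24 (SE 0.08, adjusted p = 0.02) passed the test but lost it under median scaling (adjusted p = 0.21), without replicate 1 (0.118) and without replicate 2 (0.15). The transactivator Nlrc5 fell 3.42-fold, from 69.5, 62.8 and 69.9 FPKM to 19.1, 17.2 and 22.97 FPKM, with a log2 difference of -1.77 (SE 0.12, adjusted p = 1.2e-07). Calr, a chaperone of many glycoproteins besides class I, went the other way. It had 266, 269.5 and 295 FPKM in naïve and 890.0, 625 and 529.9 FPKM in activated libraries, 2.41-fold higher with a log2 difference of 1.27 (SE 0.16, adjusted p = 2.0e-05). All activated libraries were above all naïve ones, although they differed among themselves by more than the naïve ones did.

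**Figure D3:**
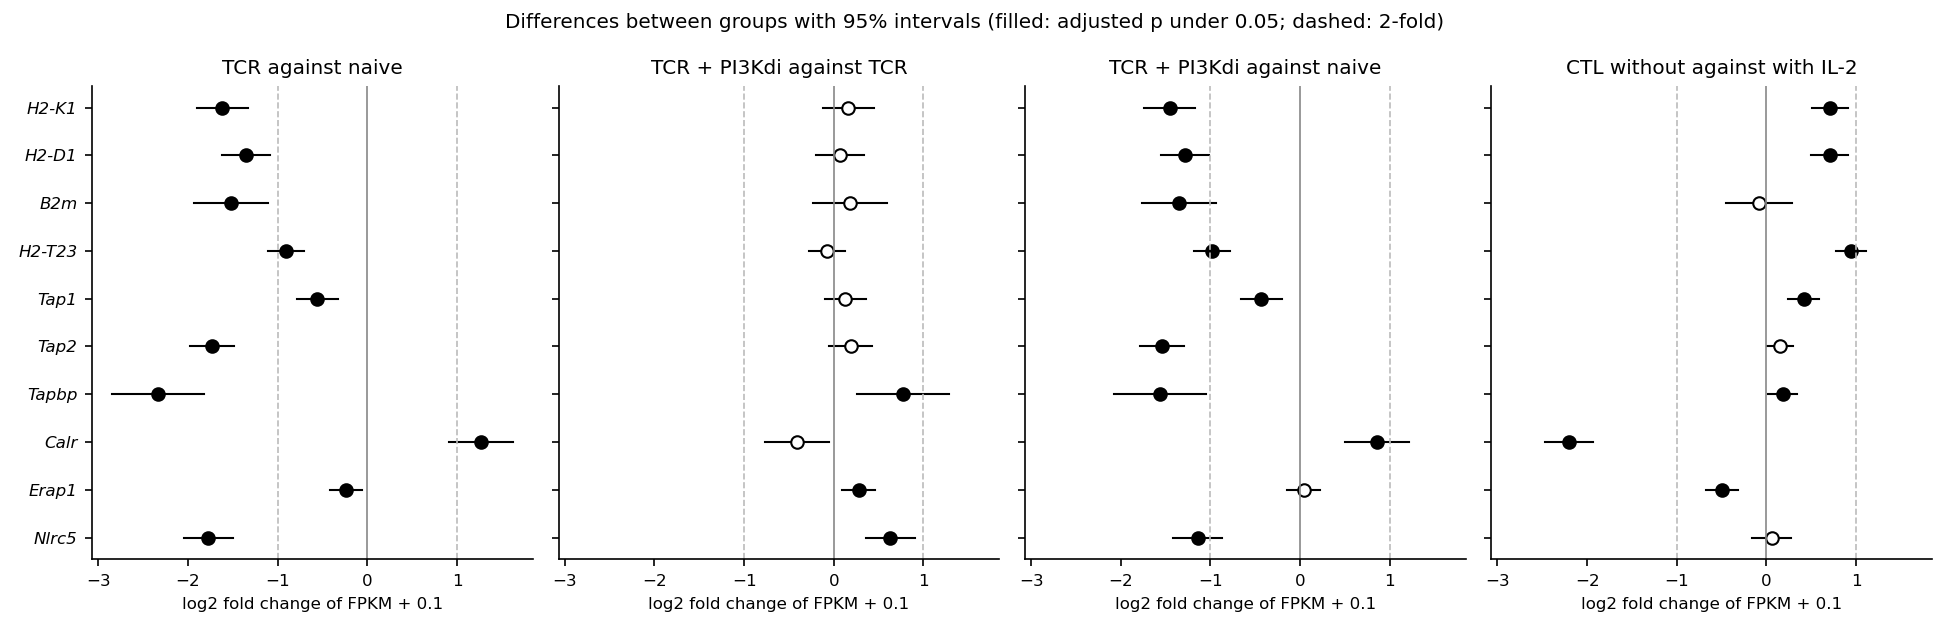
Log2 fold change of FPKM + 0.1 for the 10 mRNA in 4 comparisons, with 95% intervals from limma; filled points passed the test and dashed lines mark 2-fold. After activation 9 of 10 mRNA lie left of zero and Calr right, with PI3Kdi 3 of 10 points are filled, and IL-2 withdrawal puts Calr at -2.20.

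Inhibiting p110δ during activation changed few of these mRNA, and none by more than 2-fold. Against TCR activated cells, 0 of 10 were called higher and 0 of 10 lower, where 3.04% and 2.1% of all mRNA were. At an unadjusted p under 0.05 in limma, 3 were higher (Nlrc5, Tapbp and Erap1), beside 16.1% of all mRNA, and 1 was lower (Calr), beside 15.4%. At the adjusted p alone those 3 were higher, beside 9.35% of all mRNA, and 0 were lower, beside 8.19%. The median log2 difference was 0.17 for the 10 and -0.01 for all mRNA. Nlrc5 was at 26.2, 31.98 and 33.8 FPKM in PI3Kdi cells, above all 3 TCR activated libraries, with a log2 difference of 0.63 (SE 0.12, adjusted p = 0.0058). This is 1.55-fold, and without replicate 2 the adjusted p was 0.137. Tapbp was at 46.8, 53.3 and 81.99 FPKM, with a log2 difference of 0.77 (SE 0.23, adjusted p = 0.042). Each Tapbp library was above its same-numbered partner, but the groups overlapped. The adjusted p was 0.0944 without replicate 1, 0.262 without replicate 2, and 0.0119 with the replicate number as a block. Erap1 was at 70.4, 71.6 and 81.6 FPKM, with a log2 difference of 0.28 (SE 0.08, adjusted p = 0.041). Its groups did not overlap, and its adjusted p ranged from 0.114 to 0.265 when one replicate was left out. For Tapbp and Erap1 the adjusted p was also above 0.05 without the intensity trend (0.0755 and 0.0791) and with only the groups compared (0.098 and 0.0696). Under median scaling that of Erap1 was 0.0574.

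The other 7 mRNA in PI3Kdi cells lay within the range of the TCR activated libraries or close to it. H2-K1 was at 544, 595 and 644 FPKM, with a log2 difference of 0.16 (95% interval -0.12 to 0.45, adjusted p = 0.425). H2-D1 was at 442, 476 and 501 FPKM, with a difference of 0.07 (-0.20 to 0.34, adjusted p = 0.739), and it was negative without replicate 2 (-0.02) or without replicate 3 (-0.02). For both heavy chains the interval excludes a 2-fold difference in either direction. B2m was at 1137, 1204 and 1322 FPKM, with a difference of 0.18 (-0.23 to 0.59). H2-T23 was at 146, 148 and 157 FPKM and differed by -0.08 (-0.28 to 0.12), or by 0.01 without replicate 1. Tap1 was at 81.02, 79 and 87.9 FPKM and Tap2 at 35.1, 38.9 and 43.8 FPKM, with log2 differences of 0.13 (-0.10 to 0.36) and 0.19 (-0.05 to 0.43). Calr was at 539, 517 and 448 FPKM and lower in each of the 3 same-numbered pairs, with a log2 difference of -0.41 (-0.77 to -0.06, adjusted p = 0.105), which missed the threshold. The libraries of the 2 groups overlapped for all 7 of these mRNA.

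Set against naïve cells, PI3Kdi cells showed much the same picture as TCR activated cells. This comparison shares its libraries with the other 2, so the values are given side by side only. Of the 10 mRNA, 6 were called lower, beside 21.3% of all mRNA, and 0 higher, beside 23.6%. Log2 differences from naïve cells were -1.46 for H2-K1 (-1.62 without the inhibitor), -1.28 for H2-D1 (-1.35) and -1.35 for B2m (-1.52). Those of Tap2 were -1.54 with and -1.73 without the inhibitor. Tapbp and Nlrc5, which passed as higher with PI3Kdi in the main fit, lay nearer to naïve cells, at -1.56 (-2.34) and -1.14 (-1.77). Erap1 did not pass the test against naïve cells (0.04, 95% interval -0.14 to 0.22). Calr stayed above naïve cells, by 0.85 (SE 0.16, adjusted p = 5.0e-04), without reaching 2-fold.

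Withdrawing IL-2 from CTL for 24 h lowered Calr and raised the heavy chains, while B2m and Nlrc5 did not pass the test. Of the 10 mRNA, 1 was called lower (Calr), beside 13.9% of all mRNA, and 0 were called higher, beside 14.3%. Without replicate 1, H2-T23 was called higher as well. At the adjusted p alone, 5 were higher (H2-D1, H2-K1, H2-T23, Tap1 and Tapbp), beside 35.2% of all mRNA, and 2 were lower (Calr and Erap1), beside 36.6%. The median log2 difference was 0.17 for the 10 and close to zero for all mRNA. H2-K1 had 1067, 1153 and 1044 FPKM in CTL kept in IL-2 and 1727, 1799.8 and 1805 FPKM without it, a log2 difference of 0.71 (SE 0.09, adjusted p = 8.3e-05). H2-D1 moved by the same amount, from 1082, 1169.5 and 1052 FPKM to 1773, 1815 and 1796 FPKM, with a difference of 0.71 (SE 0.09, adjusted p = 8.4e-05). Neither heavy chain had a library of one group within the range of the other. H2-T23 had 141, 135 and 126 FPKM with and 249.6, 256 and 268 FPKM without IL-2, 1.92-fold higher with a log2 difference of 0.94 (SE 0.08, adjusted p = 4.3e-06). B2m did not follow them, with 2569, 3930.3 and 3783 FPKM and 3174, 3083 and 3254 FPKM. Its log2 difference was -0.09 (95% interval -0.46 to 0.28, adjusted p = 0.647). The first library in IL-2 was the lowest of all 6 for B2m and the other 2 the highest. Without replicate 1 the difference was -0.28 (adjusted p = 0.039), and without replicate 2 it was 0.04.

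The transporter and loading genes rose by smaller amounts than the heavy chains or did not pass the test. Tap1 went from 140.0, 151 and 139 FPKM to 181, 192 and 201 FPKM, a log2 difference of 0.42 (SE 0.08, adjusted p = 8.2e-04). Tap2 went from 131, 134 and 130.0 FPKM to 144, 149 and 147 FPKM. The groups did not overlap, but its difference of 0.15 missed the threshold (adjusted p = 0.065) and passed it under median scaling (adjusted p = 0.0412). Tapbp went from 159, 172 and 158 FPKM to 185, 183 and 186 FPKM, a difference of 0.18 (SE 0.07, adjusted p = 0.044). With the replicate number as a block the adjusted p was 0.0829, and it was 0.111 to 0.197 when one replicate was left out. Nlrc5 was at 81.5, 72.9 and 72.04 FPKM with and 70.3, 78.6 and 87.5 FPKM without IL-2, a difference of 0.06 (95% interval -0.16 to 0.27), which was -0.05 without replicate 3. The trimming peptidase Erap1 fell from 73.03, 62.7 and 70.5 FPKM to 48.5, 47.7 and 49.3 FPKM, a difference of -0.50 (SE 0.08, adjusted p = 3.6e-04). Calr fell 4.61-fold, from 659, 813 and 863 FPKM to 187, 166 and 152 FPKM, with a log2 difference of -2.20 (SE 0.12, adjusted p = 5.4e-07). It was the largest difference of the 10 in this comparison, and all libraries without IL-2 lay below all with it.

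Ratios within a library do not depend on how libraries are scaled. For 4 ratios the 4 comparisons gave 16 exact two-sided permutation tests, in which 3 against 3 libraries cannot go below p = 0.1 (0.16 after Benjamini-Hochberg adjustment over the 16). H2-K1 to H2-D1 was 1.36 to 1.47 in naïve, 1.14 to 1.21 in TCR activated and 1.23 to 1.29 in PI3Kdi libraries, with no overlap between any 2 of these groups (exact permutation p = 0.1). It was 0.986 to 0.993 and 0.974 to 1.01 in CTL with and without IL-2 (exact p = 0.8). So H2-K1 exceeded H2-D1 in every library of the first table, and the 2 were near parity in CTL. Tap1 to Tap2 was 0.952 to 1.01 in naïve cells and 2.04 to 2.38 after activation, so the 2 chains of TAP were about equal in mRNA before activation and not after (exact p = 0.1). With PI3Kdi it was 2.01 to 2.31, overlapping TCR activation alone, and in CTL it was 1.06 to 1.12 with and 1.25 to 1.37 without IL-2. H2-K1 to B2m, heavy to light chain, overlapped between naïve (0.422 to 0.624), TCR activated (0.455 to 0.523) and PI3Kdi libraries (0.479 to 0.495). In CTL it was 0.276 to 0.415 with IL-2 and 0.544 to 0.584 without, with no overlap (exact p = 0.1). Calr to Tapbp showed the widest range of the 4, at 1.56 to 1.62 in naïve, 11.1 to 25.9 in TCR activated and 5.47 to 11.5 in PI3Kdi libraries. In CTL it was 4.15 to 5.46 with and 0.818 to 1.01 without IL-2.

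**Figure D4:**
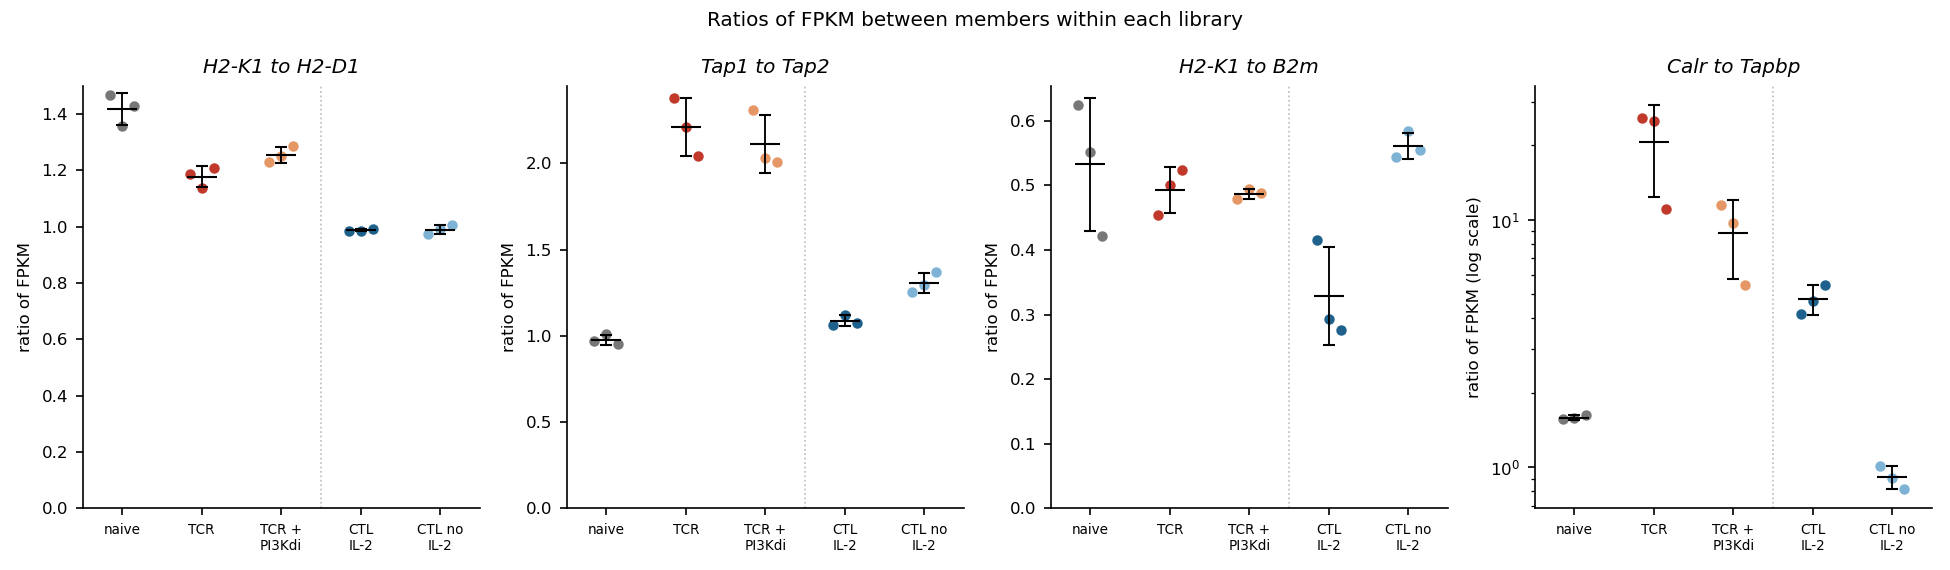
Ratio of FPKM between 2 members within each library, with 3 points per group, the mean as a bar and the SD as whiskers; the right panel has a log axis and the dotted line parts the 2 tables. Tap1 to Tap2 lies near 1 in naïve cells and near 2 in both activated groups.

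Other genes of class I presentation were taken from a list of 123 in 9 roles, of which 98 were measured in the first table and 99 in the CTL table. The list was written with earlier results of these data known, so its counts describe and support nothing further. Of the 98, 38 were called lower after TCR activation, beside 23.7% of all mRNA, and 18 higher, beside 25.0%. With PI3Kdi against TCR alone 9 were called higher, beside 3.04% of all mRNA, and 7 lower, beside 2.1%. In CTL without IL-2 13 of 99 were called higher and 17 lower, close to the 14.3% and 13.9% of all mRNA. Without replicate 2, PI3Kdi gave 4 called higher. The nonclassical and class I-like molecules had much the same direction as H2-K1. After activation 9 of 11 were called lower, beside 23.7% of all mRNA, with a median log2 difference of -2.07. Cd1d1, which presents lipids, went from 23.99, 22.8 and 20.2 FPKM to 0.04, 0.15 and 0.43 FPKM, and Mr1, which presents vitamin metabolites, from 11.6, 11.1 and 12.2 FPKM to 1.62, 0.77 and 1.13 FPKM. Their log2 differences were -6.40 (SE 0.48, adjusted p = 2.0e-07) and -3.26 (SE 0.22, adjusted p = 8.2e-08), and Cd1d2 was at -4.11 (SE 0.32, adjusted p = 2.6e-07). PI3Kdi cells had 0.39, 0.89 and 1.52 FPKM of Cd1d1, 1.80 (SE 0.48, adjusted p = 0.025) against TCR alone, which lost the threshold without replicate 2 (adjusted p = 0.241) and with only the groups compared (0.0739). The TCR activated levels of Cd1d1 lay close to the added 0.1 FPKM, so the size of both of its differences depends on that setting. In CTL without IL-2, 10 of 11 passed the test as higher, beside 35.2% of all mRNA, 4 of them by more than 2-fold, and 1 was called lower. Those called higher included H2-Q4, from 123, 135 and 133 FPKM to 264, 314 and 332 FPKM (1.21 (SE 0.10, adjusted p = 4.1e-06)), and Cd1d1 (2.05 (SE 0.14, adjusted p = 2.0e-06)). The exception was H2-Q10, from 27.5, 31.2 and 34.1 FPKM to 4.1, 5.53 and 2.7 FPKM (-2.93 (SE 0.22, adjusted p = 2.7e-06)).

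Among genes of glycoprotein folding in the endoplasmic reticulum, Hspa5, Canx and Pdia3 moved in the direction of Calr after activation and on IL-2 withdrawal. Of 12 in the loading and quality control list, 2 were called higher after activation, where 25.0% of all mRNA were, and 6 passed the test as higher, where 40.9% of all mRNA did. A single member passed as lower. With PI3Kdi 0 of 12 passed in limma, and 2 had an unadjusted p under 0.05, both lower (Sec61a1 and Sec61g). On IL-2 withdrawal 4 were called lower, beside 13.9% of all mRNA, 9 passed as lower, beside 36.6%, and 2 passed as higher. Hspa5, the chaperone BiP, had 139, 134 and 102 FPKM in naïve and 518, 509.7 and 422 FPKM in TCR activated cells (1.96 (SE 0.13, adjusted p = 1.0e-07)), and 455, 385 and 438 FPKM and 97.4, 90.4 and 82.6 FPKM in CTL with and without IL-2 (-2.24 (SE 0.09, adjusted p = 2.0e-07)). Calnexin, Canx, had 77.3, 75.2 and 67.8 FPKM and 219, 204 and 175 FPKM before and after activation (1.43 (SE 0.10, adjusted p = 1.6e-07)) and fell in CTL without IL-2 (-1.31 (SE 0.09, adjusted p = 1.4e-06)). Pdia3, the thiol oxidoreductase that joins tapasin in the loading complex, differed by 0.97 (SE 0.12, adjusted p = 1.8e-05) after activation and by -1.10 (SE 0.08, adjusted p = 2.8e-06) in CTL without IL-2. On activation, then, Tapbp and the folding chaperones Calr, Canx, Hspa5 and Pdia3 went in opposite directions.

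Proteasome subunits that shape class I peptides differed in direction on activation. Of 7, the inducible catalytic subunit Psmb10 was called lower on activation, from 111, 125 and 123 FPKM to 27.9, 29.9 and 33.2 FPKM (-1.98 (SE 0.13, adjusted p = 5.0e-08)), and 3 more passed as lower. The assembly factor Pomp and the activator subunit Psme3 were called higher, Psme3 from 74.2, 71.4 and 93.3 FPKM to 289, 277 and 300.3 FPKM (1.87 (SE 0.10, adjusted p = 1.3e-08)) and Pomp by 1.36 (SE 0.15, adjusted p = 6.7e-06). Psmb9, whose exons overlap Tap1 on the other strand, had 118, 156 and 129 FPKM in naïve and 64.2, 70.7 and 74.8 FPKM in activated cells (-0.93 (SE 0.11, adjusted p = 7.4e-06)). In CTL without IL-2, 6 of 7 passed as lower, beside 36.6% of all mRNA, Psme3 by -1.63 (SE 0.11, adjusted p = 2.0e-06). Of the cytosolic and endosomal peptidases, 8 of 11 passed as higher after activation, beside 40.9% of all mRNA, and 1 was lower. By more than 2-fold, 4 of the 11 were higher, beside 25.0% of all mRNA. In CTL without IL-2, 8 of 11 passed as lower, beside 36.6% of all mRNA, 3 by more than 2-fold, and 1 was higher. Thop1, an oligopeptidase that degrades cytosolic peptides, was at 5.25, 5.69 and 5.94 FPKM in naïve and 77.2, 77.2 and 74.8 FPKM in TCR activated cells (3.74 (SE 0.08, adjusted p = 1.7e-11)). It was at 20.04, 25.8 and 25.5 FPKM in CTL with IL-2 and 5.08, 4.84 and 3.04 FPKM without (-2.46 (SE 0.19, adjusted p = 3.5e-06)). The leucine aminopeptidase Lap3 rose on activation by 2.55 (SE 0.13, adjusted p = 1.0e-08) and fell in CTL without IL-2, with a difference of -1.95 (SE 0.09, adjusted p = 3.0e-07), as did Ide, at 1.70 and -1.33. The cytosolic peptidases named here differed in direction from Erap1 on activation, and shared it on IL-2 withdrawal.

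Among 20 measured regulators of class I transcription, 8 were called lower after activation, beside 23.7% of all mRNA, and 5 higher, which is the 25.0% of all mRNA called higher. The largest rises were in Irf8, from 1.17, 1.82 and 1.65 FPKM to 378, 427 and 377 FPKM (7.92 (SE 0.16, adjusted p = 1.3e-11)), and Irf4 (7.54 (SE 0.12, adjusted p = 2.7e-12)), both lymphoid members of the IRF family. Irf9, the DNA-binding part of the type I interferon complex, fell from 56.2, 53.8 and 57.1 FPKM to 13.3, 11.7 and 11.7 FPKM (-2.18 (SE 0.09, adjusted p = 2.5e-09)). The NLRC5 partners Rfx5 and Rfxank, named here after their values were seen, fell as Nlrc5 did, with differences of -1.22 (SE 0.14, adjusted p = 8.6e-06) and -1.93 (SE 0.17, adjusted p = 1.0e-06), while Rfxap was at -0.16 (adjusted p = 0.373). With PI3Kdi 0 of 20 were called higher and 3 lower, beside 3.04% and 2.1% of all mRNA, and the 3 were NF-κB genes: Nfkb1 (-1.42 (SE 0.12, adjusted p = 3.1e-05)), Rel (-1.20 (SE 0.17, adjusted p = 8.8e-04)) and Nfkb2 (-1.12 (SE 0.09, adjusted p = 1.6e-05)). Nfkb1 had 72.9, 73.6 and 78.9 FPKM in naïve, 229.7, 269.5 and 263 FPKM in TCR activated and 79.7, 93.1 and 115 FPKM in PI3Kdi cells, so its PI3Kdi libraries lay nearer to the naïve than to the TCR activated ones. At the adjusted p alone, 4 of the 20 were higher with PI3Kdi, beside 9.35% of all mRNA, and 5 were lower, beside 8.19%. Those higher included Irf1 (0.68) and Irf2 (0.60), named here after their values were seen, and Irf4 (0.55). They had the same direction as Nlrc5, and the 5 that passed as lower had the opposite one. In CTL without IL-2, 10 of 21 passed as higher, beside 35.2% of all mRNA, and 4 as lower, beside 36.6%, with Irf8 at -3.55 (SE 0.12, adjusted p = 7.9e-08) and Irf9 at 1.12 (SE 0.10, adjusted p = 8.7e-06).

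The interferon side of the pathway did not move as a block. Ifng had 0.13, 0.06 and 0.07 FPKM in naïve, 1949.8, 2290.0 and 2299 FPKM in TCR activated and 30.9, 27.5 and 38.8 FPKM in PI3Kdi cells, a log2 difference of -6.08 (SE 0.16, adjusted p = 5.9e-09) between the last 2. The list of receptor and kinase genes also holds Ifng and Socs1. Of its 10 measured genes, 6 were called lower after activation, beside 23.7% of all mRNA, such as Ifngr2, from 26.7, 26.9 and 28.4 FPKM to 3.15, 2.25 and 2.31 FPKM (-3.38 (SE 0.15, adjusted p = 3.0e-09)), and Jak1 (-2.33 (SE 0.08, adjusted p = 4.8e-10)). Of 16 interferon-inducible genes used as a gauge, 8 were called lower after activation and 1 higher, beside 23.7% and 25.0% of all mRNA. With PI3Kdi against TCR alone 8 of the 16 were called higher and 2 lower, beside 3.04% and 2.1%. The guanylate binding protein Gbp2 had 59.1, 71.4 and 71.9 FPKM in naïve, 38.7, 36.02 and 82.9 FPKM in TCR activated and 469, 683 and 799 FPKM in PI3Kdi cells (3.70 (SE 0.28, adjusted p = 1.5e-05)). The GTPase Iigp1 differed by 1.97 (SE 0.25, adjusted p = 3.9e-04) and Isg15, another interferon-inducible gene, by -1.53 (SE 0.46, adjusted p = 0.043). Isg15 was at 3.71, 2.99 and 9.15 FPKM in TCR activated and 2.12, 0.72 and 2.37 FPKM in PI3Kdi cells, and its call was lost with a pseudocount of 1 and when any replicate was left out (adjusted p from 0.0668 to 0.13). In CTL without IL-2, 7 of 10 genes of that list passed as higher, beside 35.2% of all mRNA, and 2 as lower, Ifng and Socs1. There Socs1, an inhibitor of cytokine signalling, fell from 80.1, 98.7 and 73.5 FPKM to 18.1, 20.3 and 25.8 FPKM (-1.97 (SE 0.14, adjusted p = 2.5e-06)), Ifng was at -4.63 (SE 0.25, adjusted p = 5.7e-07), and 12 of 16 gauge genes passed as lower, beside 36.6% of all mRNA, and 2 as higher, beside 35.2%. H2-K1, H2-D1 and H2-T23 rose there while most of the gauge fell. Of the 16, 5 were called lower and 1 higher, Ifit3, beside 13.9% and 14.3% of all mRNA. When one replicate was left out, Ifit3 ran from 2.45 to 2.79, the direction of the heavy chains. Usp18 then ran from -2.31 to -2.18 and Ifnar2, among the receptor genes, from 1.36 to 1.43. Whether these differences are linked was not tested.

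**Figure D5:**
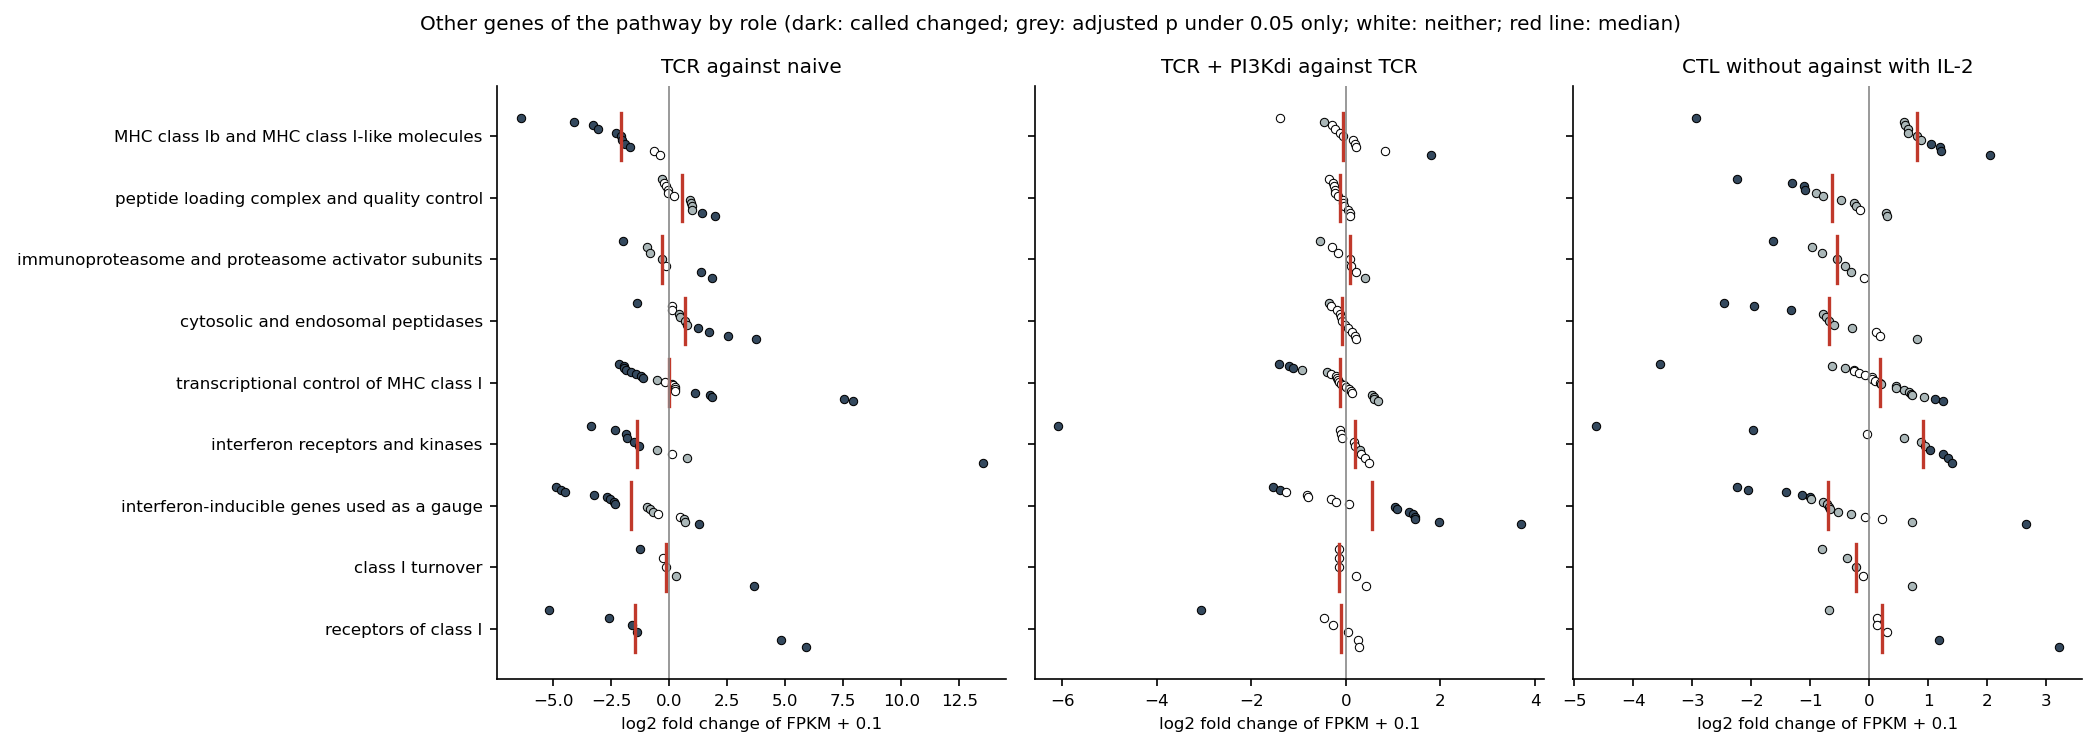
Log2 fold change of FPKM + 0.1 of the other measured pathway genes in 3 comparisons, by role; dark points were called changed, grey ones passed the adjusted p alone, white ones neither, and the red line is the median. The class Ib row has its median at -2.07 after activation and is higher in CTL without IL-2, opposite to the loading complex row.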

How the data were processed

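The authors deposited FPKM, made from paired 75-base reads that were, according to their methods and processing notes, aligned with STAR 2.5.2b to mm10, counted with Subread 1.5.1, filtered for low counts, scaled with edgeR's TMM factors and divided by exon length. The same steps were assumed for the CTL table. Values have 2 decimals, blank cells were read as 0, and reads per library are not given.

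Groups came from the titles and protocols of the labels. The treatment labels of the CTL in IL-2, replicates 2 and 3, name other interleukins, and these were grouped by title and protocol. Values log2(FPKM + 0.1) were fitted with limma 3.58.1 in R 4.3.3 with an intensity trend, 1 fit for the 9 libraries of the first table and 1 for the 6 CTL libraries, with p-values adjusted over all mRNA of a table. The fit was tested on simulated data. Tables were made in Python 3.11.15 (pandas 2.3.3 with numpy 2.4.6), permutation tests in scipy 1.17.1 and figures in matplotlib 3.10.9.

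The labels state that pools of cells were divided between the naïve, TCR activated and PI3Kdi conditions, so same-numbered libraries of these groups were taken as pairs. Deviations of same-numbered libraries from their group means, across mRNA with a mean of at least 1 FPKM, had a Pearson r of 0.20 to 0.51 for TCR activated with PI3Kdi cells, 0.12 to 0.26 for the CTL groups and -0.18 to 0.23 for naïve with TCR activated cells. For libraries of different number, r was -0.45 to 0.19, -0.20 to 0.09 and -0.31 to 0.38 in the same order. Naïve with PI3Kdi cells had an r of -0.02 to 0.03 for the same number and -0.03 to 0.04 for different numbers. CTL were taken as pairs because every same-numbered r of the CTL groups was above 0.1, although the labels do not state it. These r come from the same libraries, so they cannot establish the pairing. Neither the main fit nor the permutation tests used the pairing. A fit with the number as a block, over all groups of a table, was an alternative.

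The 10 mRNA and the gene lists were chosen with earlier results of these data known. All 10 are named, and other pathway genes were named by role, up to 3 per comparison by size of the difference among those called, except Psmb9, Rfx5, Rfxank, Rfxap, Sec61a1, Sec61g, Irf1 and Irf2, chosen after their values were seen. Other alternatives were a pseudocount of 1 or 0.01, median scaling, no intensity trend, only mRNA with a mean of at least 1 FPKM, each replicate left out, only the groups compared, and other fold change limits.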

Additional observations from a re-analysis of the deposited data

How the results depend on the processing

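With the replicate number as a block, Tapbp in CTL without IL-2 kept its log2 difference of 0.18 and lost the threshold (adjusted p = 0.0829), and no other call on the 10 mRNA changed. After TCR activation, 1 of the 10 was called higher under every alternative run, and 6 were called lower under all but the other fold change limits, which gave 7 at 1.5 and 9 with none. Reads per library are not given, so what depth limits could not be stated. The fold change limit moved counts by construction. For other moves the cause was not tested.

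With a fold change limit of 1.5, 2 of the 10 were called higher with PI3Kdi against TCR, 1 with PI3Kdi against naïve cells and 3 in CTL without IL-2. In CTL that limit gave 29 pathway genes higher and 33 lower, and 5657 of all mRNA changed, and 1120 of all mRNA changed with PI3Kdi against TCR. With no fold change limit, the members called higher were 3, 1 and 5 and 2 were lower in CTL. Pathway genes called higher were then 30 after activation, 15 with PI3Kdi against TCR, 33 against naïve cells and 35 in CTL, and those called lower 12 with PI3Kdi against TCR and 46 in CTL. All mRNA changed were 9096, 1975, 8906 and 8056 in the same order of comparisons, beside 5489, 579, 5063 and 3166 with the limit. A pseudocount of 1 gave 311 mRNA changed with PI3Kdi against TCR.

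Leaving out each replicate gave 0 to 1 of the 10 called higher in CTL without IL-2, 4 to 8 pathway genes called higher with PI3Kdi against TCR (4 without replicate 2) and 323 to 574 of all mRNA changed (323 without replicate 2). Log2 differences that changed sign ran from -0.0227 to 0.2537 for H2-D1 and from -0.1197 to 0.0127 for H2-T23 with PI3Kdi against TCR, from -0.0383 to 0.0907 for Erap1 with PI3Kdi against naïve cells, and from -0.2838 to 0.0438 for B2m and -0.0527 to 0.1942 for Nlrc5 in CTL, all without a call in the fit of all libraries.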

Other observations

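Genes listed as receptors of class I molecules moved too. Of 6 measured, 4 were called lower after TCR activation and 2 higher, beside 23.7% and 25.0% of all mRNA. Cd8b1, a chain of the CD8 co-receptor that binds class I, had 1111, 1266 and 1361 FPKM in naïve and 232, 214 and 184 FPKM in TCR activated cells (log2 difference -2.57 (SE 0.13, adjusted p = 7.7e-09) in limma). Klrd1, which encodes the CD94 chain that pairs with NKG2A to bind Qa-1, went from 142, 141 and 120.3 FPKM to 3.64, 3.8 and 3.38 FPKM (-5.18 (SE 0.11, adjusted p = 2.2e-11)). Klrc1, the NKG2A chain itself, was listed at 0 in the 3 naïve libraries, at 3.44, 4.01 and 1.45 FPKM in TCR activated and at 0.2, 0.32 and 0.21 FPKM in PI3Kdi cells (-3.06 (SE 0.34, adjusted p = 1.7e-04) between the last 2). In CTL, Klrd1 was at 34.4, 20.1 and 25.1 FPKM with and 220.0, 208 and 309 FPKM without IL-2 (3.22 (SE 0.20, adjusted p = 1.0e-06)), where the Qa-1 heavy chain H2-T23 was higher as well. The inhibitory receptor Lilrb4 is counted in that list, but it is not taken here as a receptor that reads class I. It was at 0.27, 0.26 and 0.17 FPKM in naïve and 25.9, 16.8 and 17.8 FPKM in TCR activated cells (5.91 (SE 0.23, adjusted p = 9.3e-10)). Of 5 measured genes of class I turnover, March9, a ubiquitin ligase that removes class I from the surface, was called higher after activation and March8 lower, by 3.66 (SE 0.24, adjusted p = 6.6e-08) and -1.24 (SE 0.09, adjusted p = 1.2e-07).

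The mRNA whose log2 level followed H2-K1 most closely over the 9 libraries of the first table, among 10071 with a mean of at least 1 FPKM, were Izumo4 (Pearson r 0.999), H2-D1 (0.997) and Yipf3 (0.997). Over the 6 CTL libraries their r with H2-K1 was 0.983, 0.999 and 0.996. For Nlrc5 the closest were Rhobtb2 (0.996), Tmem71 (0.995) and S1pr4 (0.994), and over the CTL libraries their r was 0.258, 0.298 and 0.271. The points share 3 groups, so such an r is given as a description. Izumo4 was at 41.2, 44.8 and 47.9 FPKM in naïve and 3.81, 1.61 and 2.55 FPKM in TCR activated cells, and Tmem71 at 57.4, 60.3 and 57.9 FPKM and 0.48, 0.56 and 1.36 FPKM.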
